A study of Mus musculus with 4 samples.

Results

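Receptor tyrosine kinases of tumour cells are described here by the 10 genes Axl, Mertk, Met, Pdgfra, Pdgfrb, Fgfr1, Fgfr2, Igf1r, Insr and Ddr1, out of 19310 genes on the array. They were chosen by gene symbol in the array's annotation, and each was measured by 1 probe. E0771, a mouse line of triple-negative breast carcinoma, was given IL-26 (30 ng/ml) or vehicle for 24 h, and IL-26 (30 ng/ml) or vehicle for 6 h. IL-26 belongs to the cytokine family of IL-10, mice have no gene for it, and the study's methods name the recombinant human protein. RNA of each culture was read on 1 array, giving 4 arrays and no replicate of any group, and the labels name no genetic change in the cells. Nothing in the labels tells if these were independent cultures. The p-values speak only for these 4 arrays and measure no spread between replicates. Their errors come mostly from other genes, and differences between arrays may be technical.

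Receptor tyrosine kinases are membrane proteins that bind a growth factor or matrix ligand outside the cell and phosphorylate themselves and adaptor proteins inside it, feeding the RAS-ERK and PI3K-AKT pathways. In tumours, several of them can carry growth signals while the EGF receptor is blocked. Axl and Mertk are TAM receptors for Gas6 and protein S, Met is the receptor for hepatocyte growth factor, and Pdgfra and Pdgfrb bind platelet-derived growth factors. Fgfr1 and Fgfr2 bind fibroblast growth factors, Igf1r and Insr bind insulin-like growth factors and insulin, and Ddr1 is a receptor for collagen.

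With time in culture, Axl, Mertk and Pdgfrb rose and Fgfr1, Igf1r and Met fell, and each did so in both treatments. Of all detected genes, 28.8% passed the same test for time. With the local background subtracted, 0 of 18366 genes passed, and some of these differences changed sign. Axl, Mertk, Pdgfrb and Met also missed the threshold without the trend of variance on intensity. With IL-26, none of the 10 genes passed the test, where 0.479% of detected genes did. None differed by 1.5-fold, where 0.049% of detected genes did at 24 h and 0.0817% at 6 h. Fgfr2 was not measurable above the negative control spots on any array.

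Promoter sequences are shown for Axl and Mertk, which rose with time, and for Met and Igf1r, which fell. Each runs 5′ to 3′ from RefSeq (GRCm38.p6), 250 bases before to 50 bases after the start of the gene, with GC boxes (GGGCGG on either strand, not overlapping each other or the AP-1 match) in capitals.
Axl, chr7:25788684-25788983, minus strand: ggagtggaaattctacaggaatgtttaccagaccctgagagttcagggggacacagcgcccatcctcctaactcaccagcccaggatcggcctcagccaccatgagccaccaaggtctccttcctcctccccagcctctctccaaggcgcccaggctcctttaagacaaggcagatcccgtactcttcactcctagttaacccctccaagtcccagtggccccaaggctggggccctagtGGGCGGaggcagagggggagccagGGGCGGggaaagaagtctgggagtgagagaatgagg
Mertk, chr2:128698665-128698964, plus strand: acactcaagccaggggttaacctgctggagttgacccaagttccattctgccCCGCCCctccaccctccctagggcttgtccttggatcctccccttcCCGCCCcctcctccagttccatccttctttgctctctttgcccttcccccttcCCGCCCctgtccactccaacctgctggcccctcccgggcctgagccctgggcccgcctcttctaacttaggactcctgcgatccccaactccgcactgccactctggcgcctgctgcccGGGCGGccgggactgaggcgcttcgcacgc
Met, chr6:17463707-17464006, plus strand: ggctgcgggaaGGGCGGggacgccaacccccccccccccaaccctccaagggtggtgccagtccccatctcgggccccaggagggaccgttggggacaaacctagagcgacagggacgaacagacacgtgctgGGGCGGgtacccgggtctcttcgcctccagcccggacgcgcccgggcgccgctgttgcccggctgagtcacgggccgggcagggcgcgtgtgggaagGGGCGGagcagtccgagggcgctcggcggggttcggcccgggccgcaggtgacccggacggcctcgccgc
Igf1r, chr7:67952007-67952306, plus strand: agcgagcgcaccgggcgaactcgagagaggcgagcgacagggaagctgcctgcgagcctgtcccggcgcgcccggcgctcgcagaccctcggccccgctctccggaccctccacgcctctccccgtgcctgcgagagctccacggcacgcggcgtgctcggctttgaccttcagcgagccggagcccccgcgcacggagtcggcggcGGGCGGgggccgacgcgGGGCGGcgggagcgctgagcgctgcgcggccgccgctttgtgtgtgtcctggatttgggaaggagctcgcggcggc

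Promoters of 7 of the 10 receptors were searched. Fgfr1, Insr and Pdgfrb were not analysed here, although Fgfr1 and Pdgfrb also differed with time, Fgfr1 by the most. There were 2 GC boxes in Axl, 4 in Mertk, 3 in Met and 2 in Igf1r, against 0 in Pdgfra, 0 in Fgfr2 and 0 to 3 at the 4 starts of Ddr1, while 35.7% of 32851 promoters of the same length held at least 1. Axl and Mertk had 6 and 14 CpG dinucleotides, against 34 in Met and 48 in Igf1r, where the median over all promoters was 7. An AP-1 site (TGANTCA on either strand) lay in the Met promoter and at 1 start of Ddr1, and 7.81% of all promoters held one. No TATA box (TATAAA) or CCAAT box (CCAAT) was found in the 4 windows shown on either strand, against 13.6% and 37.4% of all promoters. That same Ddr1 start held 1 CCAAT box. A match is a run of letters and was not tested for binding.

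All intensities below are Cy5 spot medians in scanner units, and all log2 values come after background correction with an offset of 50, which draws differences of dim spots towards 0. The median gene spot read 78.0 and 84.4 on the IL-26 and vehicle arrays at 24 h, and 78.9 and 82.0 at 6 h. Detection meant a signal more than 2 SD over the average blank spot, at limits of 53.4, 58.1, 51.8 and 52.0 on these arrays. Since 32.3% to 52.1% of negative control spots passed those limits, the 95th percentile of the negative control spots (54.9, 59.7, 53.9 and 53.7) was set beside them. By that stricter limit, 9 of the 10 receptor genes were measured on all arrays and 1, Fgfr2, on none. Of all 19310 genes, 16422, 16381, 16290 and 16556 passed it on these arrays. Of 4 adipocyte and muscle markers, 3 passed it on all arrays. Passing is therefore not read as proof of expression. Of 6 epithelial marker genes, 6 passed it on all arrays, led by Krt8 (1499, 1747, 1436 and 1838), while Epcam was dim (59.6, 66.2, 61.9 and 59.4). Cdh1, Krt18, Krt19 and Krt7 were dim as well, reading at most 74.3 (Krt18 with vehicle at 24 h). Vim, a mesenchymal filament gene, read 15520, 15940, 19170 and 18770. Pdgfra and Pdgfrb themselves stand on the mesenchymal marker list, of which 7 of 8 passed. On that list Acta2 read 896, 930, 981 and 1077. Col1a1 and Cdh2 were dim, at 64.4 and 59.2 with IL-26 at 24 h, and Fn1 passed on 1 array. Of 5 leukocyte markers on the array, 3 passed on all arrays and 1 on none. Summed intensities of the 4 detected ones were 603 and 582 with IL-26 and vehicle at 24 h and 676 and 718 at 6 h. Cd68 alone read 367, 333, 388 and 421, while Ptprc was dim (55.8, 60.6, 55.2 and 56.8). Lyz2 fell with time (-0.51, limma adjusted p = 1.7e-07). Blank signal was not removed from these sums or from those of the endothelial markers. Of 5 endothelial markers, 2 passed on all arrays, with sums of 296, 324, 309 and 311. Among them Tek passed on 0 arrays and Pecam1 on 1. The part of other cell types in the values below was not tested.

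**Figure D1:**
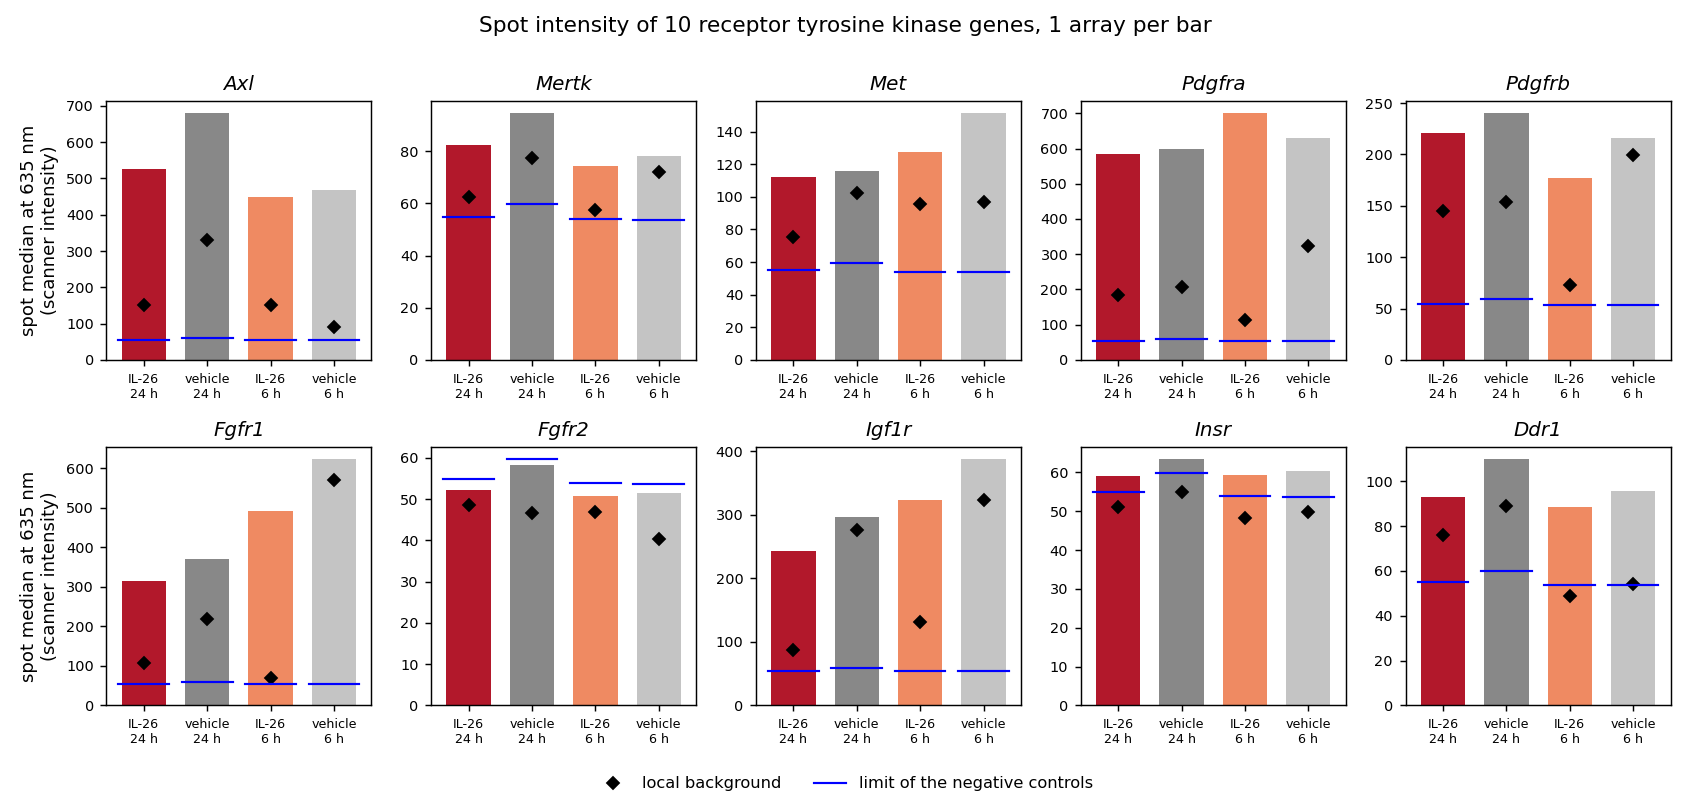
Cy5 spot median intensity in scanner units (bars, 1 array each) of the 10 receptor genes with IL-26 and vehicle at 24 h and at 6 h, on an axis of its own for each gene. Diamonds give the local background beside the spot and blue lines the 95th percentile of the negative control spots. Fgfr2 stayed under the blue line on all arrays. The local background came close to the spot for several genes. With vehicle at 6 h it was 91.6% of the spot for Fgfr1, 92.2% for Mertk and 92.3% for Pdgfrb. For Igf1r it was 93.4% with vehicle at 24 h.

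The question for time in culture was how far the receptors differed between 24 h and 6 h whichever medium the cells had. In the additive fit of time and treatment (limma, Benjamini-Hochberg adjusted p under 0.05 over 18366 detected genes), 3 of the 10 receptors rose and 3 fell, where 28.8% of all detected genes passed, 14.5% up and 14.3% down. At an unadjusted p under 0.05 it was 7 of 10 receptors, where 37% of genes passed. Bright genes passed more often. Of the 7 receptors above the median signal 5 passed, beside 43.2% of the 9183 genes with such a signal. Of the 3 dimmer receptors 1 passed. Among all 18366 detected genes 5296 passed, 3964 of them above the median signal. This fit has 1 residual degree of freedom and a prior worth 63.6, so its errors come mostly from other genes of like signal. The residual is the gap between the time differences of the 2 treatments, so the fit counts any such gap as error. For Axl these differences were 0.26 with IL-26 and 0.57 in vehicle. With the local background subtracted, 0 of 18366 genes passed for time (1048 at an unadjusted p under 0.05), and the difference turned to -0.06 for Axl in vehicle, -0.13 for Pdgfrb with IL-26 and 0.10 for Met with IL-26.

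Of the TAM receptors, Axl and Mertk rose. Axl read 525 with IL-26 and 679 with vehicle at 24 h, and 448 with IL-26 and 469 with vehicle at 6 h. Both 24 h arrays were higher than both 6 h arrays, and the vehicle array at 24 h was the highest. Its log2 difference with time was 0.26 with IL-26 and 0.57 in vehicle, and 0.41 ± 0.11 (SE) averaged over both (1.33-fold, limma adjusted p = 0.00158, higher in 2 of 2 comparisons). Mertk read 82.4 and 94.5 at 24 h with IL-26 and vehicle, and 74.5 and 78.2 at 6 h. Both 24 h arrays were above both 6 h arrays, on a spot not far over the blank spots, whose mean was 51.9 and 56.5 with IL-26 and vehicle at 24 h and 50.2 and 49.6 at 6 h. After correction the log2 difference was 0.17 with IL-26 and 0.23 in vehicle, and 0.20 ± 0.05 on average (1.15-fold, limma adjusted p = 0.00119). The Mertk difference was 0.35 with offset 16 and 0.48 in the authors' table. Both rises missed the threshold without the trend of variance on intensity (limma adjusted p = 0.0629 for Axl and 0.0543 for Mertk) and with the local background subtracted. That background was 92.2% of the Mertk spot with vehicle at 6 h and at least 75.7% of it on every array.

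Pdgfrb rose and Pdgfra did not pass. Pdgfrb, whose product drives pericyte and fibroblast growth, read 221 with IL-26 and 240 with vehicle at 24 h, and 177 with IL-26 and 216 with vehicle at 6 h. Both 24 h arrays were above both 6 h arrays, and the IL-26 array at 6 h stood lowest. Its log2 difference was 0.31 with IL-26 and 0.16 in vehicle, and 0.23 ± 0.09 on average (SE, limma adjusted p = 0.0360). The difference was 0.38 in the authors' table. This call was lost without the filter on dim genes (limma adjusted p = 0.0701), without the trend of variance (0.0728) and with the local background subtracted (0.822). That background was 92.3% of the Pdgfrb spot with vehicle at 6 h, against 41.1% with IL-26 at 6 h. Pdgfra, which marks fibroblast and oligodendrocyte progenitors, read 585 and 598 with IL-26 and vehicle at 24 h, and 700 and 631 at 6 h. Its log2 difference of -0.25 with IL-26 and -0.04 in vehicle averaged -0.15 ± 0.11 (95% interval -0.36 to 0.07, limma adjusted p = 0.350).

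Fgfr1, a receptor for fibroblast growth factors, fell by more than any other of the 10. It read 314 with IL-26 and 371 with vehicle at 24 h, and 490 with IL-26 and 623 with vehicle at 6 h. Both 24 h arrays were below both 6 h arrays, an order whose share over all detected genes was not counted. The vehicle array was above the IL-26 array at both times. Its log2 difference with time was -0.62 with IL-26 (1.54-fold) and -0.72 in vehicle (1.64-fold), the only receptor past 1.5-fold, where 5.1% of detected genes with IL-26 (2.86% up and 2.24% down) and 4.6% in vehicle (2.6% up and 2% down) reached that size. Averaged over both treatments it was -0.67 ± 0.10 (SE, limma adjusted p = 2.25e-07). The 3 detected genes whose values over the 4 arrays lay closest to those of Fgfr1 were Fat1, Sephs1 and Jund, at Euclidean distances of 0.045, 0.050 and 0.051 between mean-centred log2 values. The local background beside the Fgfr1 spot was 107 and 218 with IL-26 and vehicle at 24 h, and 68.7 and 571 at 6 h, which is 91.6% of the spot with vehicle at 6 h. With that local background subtracted, the difference in vehicle turned to 0.78 while that with IL-26 was -0.67, and the average was 0.06 (limma adjusted p = 0.977). The authors' processed table, in which 1 constant per array is subtracted from all spots, gave -0.65 with IL-26 and -0.75 in vehicle. No spot around a receptor gene read above 2089, whereas the 99th percentile of gene spots lay at 6446 to 7875. Fgfr2 read 52.1 and 58.4 with IL-26 and vehicle at 24 h, and 50.8 and 51.5 at 6 h, under the limit of the negative controls on every array, so no fold is given.

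Igf1r fell and Insr did not pass. Igf1r, the receptor for insulin-like growth factors, read 244 with IL-26 and 296 with vehicle at 24 h, and 324 with IL-26 and 388 with vehicle at 6 h. Both 24 h arrays were below both 6 h arrays, with vehicle above IL-26 at each time. Its log2 difference was -0.41 with IL-26 and -0.36 in vehicle, and -0.39 ± 0.10 on average (SE, 1.31-fold, limma adjusted p = 0.000953). Of 9 alternative settings, Igf1r and Fgfr1 each passed in 8, all but the subtraction of the local background, which stood at 83.1% of the Igf1r spot with vehicle at 6 h and 93.4% with vehicle at 24 h. Several of the 8 could not move these estimates. The filters, single probes, removal of spots beside bright spots and the fit without the trend altered only errors and p-values. Insr, the insulin receptor, was dim at 59.2 and 63.5 with IL-26 and vehicle at 24 h, and 59.4 and 60.3 at 6 h. Its average difference was -0.03 ± 0.03 (95% interval -0.09 to 0.04, limma adjusted p = 0.597), on a scale that the offset compresses for such a spot.

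Met, the receptor for hepatocyte growth factor, fell. It read 112 with IL-26 and 116 with vehicle at 24 h, and 128 with IL-26 and 151 with vehicle at 6 h. The vehicle array at 6 h stood above the others, and the 24 h arrays were the lowest. Its log2 difference was -0.20 with IL-26 and -0.40 in vehicle, and -0.30 ± 0.07 on average (SE, 1.23-fold, limma adjusted p = 0.000708). The difference was -0.46 in the authors' table. The call was lost without the trend of variance (limma adjusted p = 0.0641) and with the local background subtracted (0.818). Ddr1, the collagen receptor, read 92.9 and 110 with IL-26 and vehicle at 24 h, and 88.4 and 95.5 at 6 h. By spot intensity the IL-26 array at 24 h lay between the 6 h arrays, but on the normalized log2 scale both 24 h arrays (6.56 and 6.69) were above both 6 h arrays (6.47 and 6.51). Its average log2 difference of 0.13 ± 0.06 missed the threshold (95% interval 0.01 to 0.25, limma adjusted p = 0.0928).

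**Figure D2:**
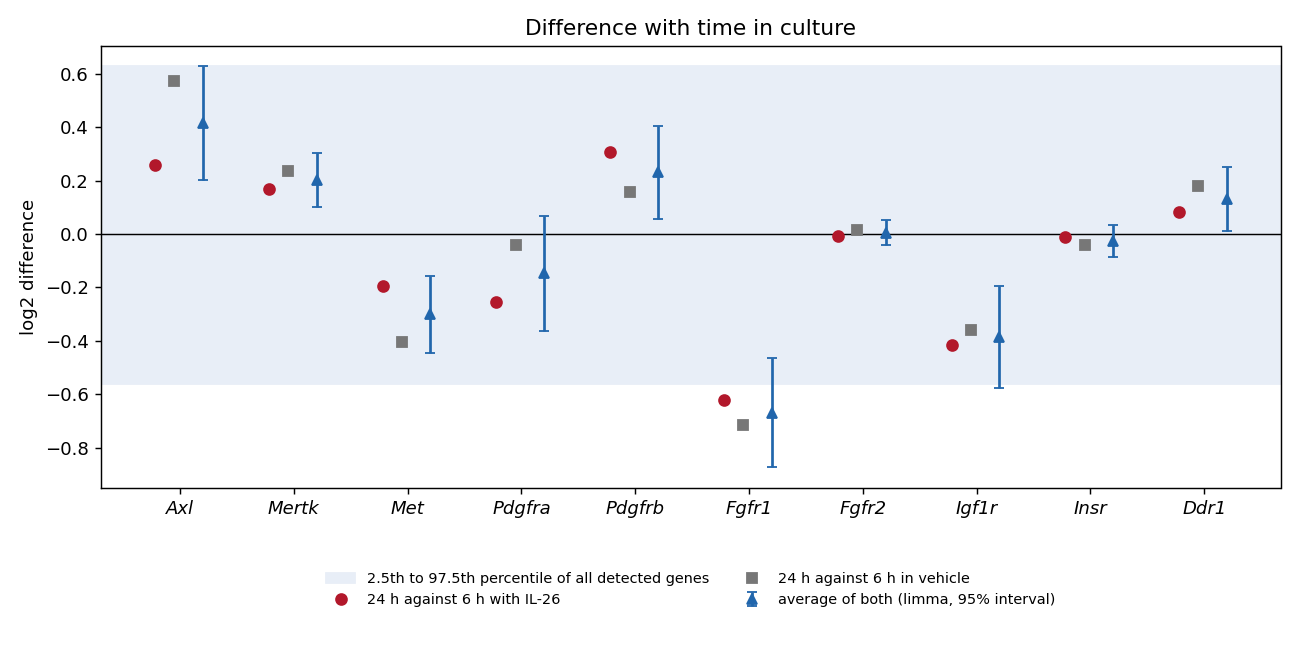
Log2 differences between 24 h and 6 h of the 10 receptor genes with IL-26 (circles) and in vehicle (squares), and their average with its 95% interval from limma (triangles). The shaded band holds the central 95% of all detected genes in the wider of the 2 comparisons; Fgfr1, at -0.62 and -0.72, was the only receptor below it, and Axl reached 0.57 in vehicle.

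The question for IL-26 was whether the cells altered the level of other receptor tyrosine kinases within 24 h of the cytokine. None of the 10 receptors differed by 1.5-fold at 24 h or 6 h, a size that 0.049% of detected genes reached at 24 h (0.0109% up and 0.0381% down) and 0.0817% at 6 h (0.0544% up and 0.0272% down). In the fit averaged over both times 0 of 10 passed by limma, where 0.479% of genes did (0.163% up and 0.316% down), and 0 of 10 had an unadjusted p under 0.05, where 4.75% did. None passed in any of the 9 alternative settings. Values were lower with IL-26 at both times for 6 of the 10 (Mertk, Pdgfrb, Fgfr1, Igf1r, Ddr1 and Fgfr2) and higher at both for 1, Pdgfra. Fgfr2 was under the negative control limit on every array. The share of all detected genes lower at both times was not counted, so no shift of the receptors is read from this. The median of the 10 was -0.06 at 24 h and -0.03 at 6 h, beside medians of 0.01 and -0.00 over all detected genes.

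The largest differences at each time were those of Axl and Pdgfra, and the largest average was that of Fgfr1. At 24 h Axl had the largest difference, at -0.26, and 2.90% of detected genes differed by as much, while at 6 h its difference was 0.05. At 6 h Pdgfra had the largest, at 0.27 (1.21-fold), which 1.85% of detected genes matched, while at 24 h it was 0.06. Fgfr1 was lower at both times, at -0.14 at 24 h (12.4% of detected genes differed by as much) and -0.24 at 6 h (2.94%), averaging -0.19 ± 0.10 (SE, 95% interval -0.39 to 0.01, limma adjusted p = 0.999). Igf1r was also lower at both, with -0.19 at 24 h and -0.13 at 6 h, averaging -0.16 ± 0.10 (95% interval -0.35 to 0.03, limma adjusted p = 0.999). Both intervals include 0, and they reach down to -0.39 and -0.35 on the log2 scale. With the local background subtracted, both averages turned, to 0.63 for Fgfr1 and 0.67 for Igf1r, neither past the threshold.

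For the other receptors the average with IL-26 was -0.10 ± 0.11 for Axl, -0.05 ± 0.05 for Mertk, -0.04 ± 0.07 for Met, 0.16 ± 0.11 for Pdgfra and -0.11 ± 0.09 for Pdgfrb (SE). It was 0.01 ± 0.03 for Insr and -0.09 ± 0.06 for Ddr1. Ddr1 had differences of -0.14 at 24 h and -0.04 at 6 h. Pdgfrb had -0.03 at 24 h and -0.18 at 6 h, and Mertk -0.09 at 24 h and -0.02 at 6 h. The differences with IL-26 and with time draw on the same 4 arrays, so a high vehicle array at 6 h, as for Fgfr1 and Met, enters both.

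**Figure D3:**
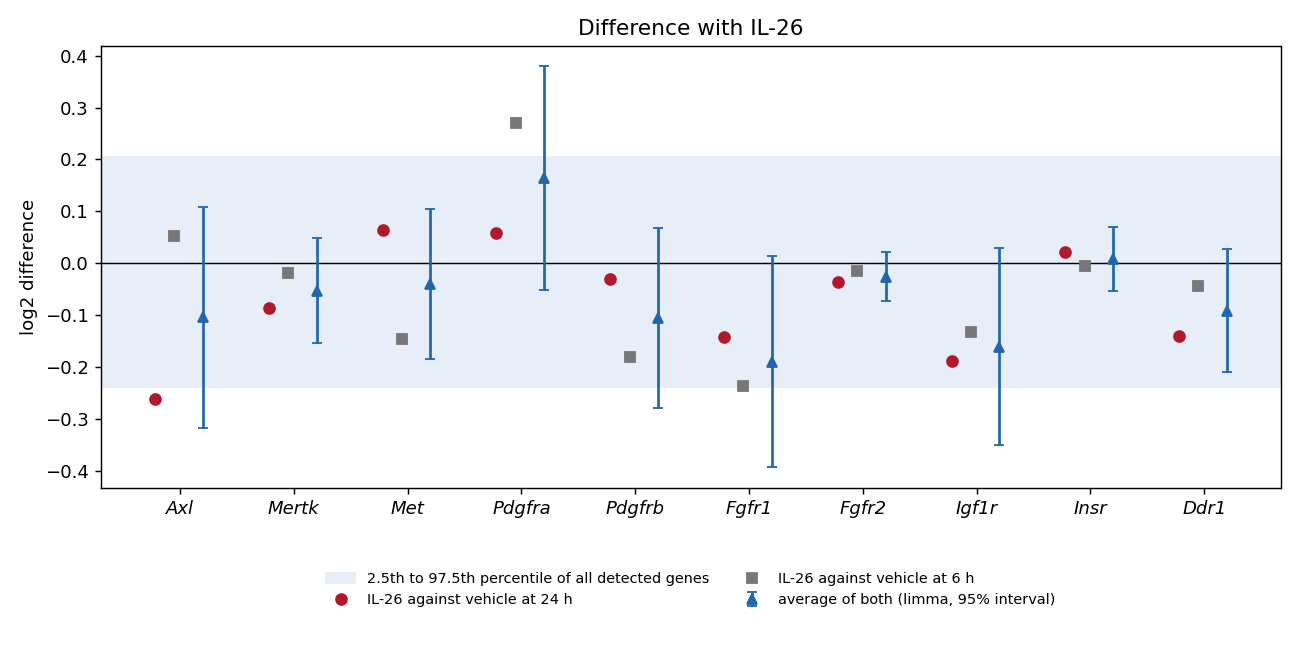
Log2 differences between IL-26 and vehicle of the 10 receptor genes at 24 h (circles) and at 6 h (squares), and their average with its 95% interval from limma (triangles). The shaded band joins limits of the central 95% of all detected genes at both times. It runs from the lower limit at 24 h (-0.238) to the upper limit at 6 h (0.205). Axl at 24 h (-0.26) and Pdgfra at 6 h (0.27) lay outside it. Fgfr1 at 6 h (-0.2365) lay inside the band but under the lower limit at 6 h (-0.193). Every interval of the average covers 0.

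Genes around the receptors in the same pathways were described from lists by role. Among 9 detected relatives of the same families, 2 rose with time, 2 fell and 5 did not pass (median 0.01, beside -0.00 over all detected genes). Here and in the lists that follow, counts stand beside the 28.8% of all detected genes that passed for time, 14.5% up and 14.3% down. Tyro3, the remaining TAM receptor, fell by 0.40 on the log2 scale (SE 0.08, limma adjusted p = 3.36e-05) where Axl and Mertk rose. Fgfrl1, a receptor-like protein without a kinase domain, fell by 0.28 and Fgfr3, a dim spot beside a bright one, rose by 0.175. Insrr, a relative of the insulin receptor, rose by 0.13. Among 15 detected receptor tyrosine kinases of other families only Kdr, a receptor for vascular endothelial growth factors, passed, at -0.19 (Kdr and Tek are also endothelial markers). Their median was 0.02. Of the 16 such genes on the array, 12 passed the negative control limit on all arrays and 4 on none.

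Of 18 detected ligand genes, 0 rose, 1 fell and 17 did not pass, beside 28.8% of all detected genes that passed. Bright genes passed more often, at 43.2% of those above the median signal, and many ligand spots were dim. Of 20 ligand genes on the array, 12 passed the negative control limit on all arrays. The one that fell was Pros1, which encodes protein S, a ligand of the TAM receptors, at -0.47 ± 0.08 (SE, limma adjusted p = 7.48e-07), with -0.60 with IL-26 and -0.34 in vehicle. Gas6, the other TAM ligand, named after its values were seen, did not pass (-0.02 with IL-26 and 0.04 in vehicle). Of 15 carriers and activators of ligands, 2 rose on average over both treatments, 2 fell and 11 did not pass. Igfbp6, a binding protein for insulin-like growth factors, fell by 0.73 (limma adjusted p = 1.35e-07) and Spint2, an inhibitor of the protease that activates hepatocyte growth factor, fell by 0.52. St14, the membrane protease matriptase, which can activate hepatocyte growth factor, rose by 0.47 (limma adjusted p = 5.40e-11). Igfbp5 passed at an average of 0.10, from 0.22 with IL-26 and -0.02 in vehicle, so it did not rise in vehicle. Its spots were dim, at 63.8 and 60.1 with IL-26 and vehicle at 24 h and 54.9 and 55.5 at 6 h.

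Among 22 detected adaptors and proximal signalling genes, 5 rose, 2 fell and 15 did not pass, a share near the 28.8% of all detected genes. Plcg1, a phospholipase recruited to active receptors, rose by 0.43 and Pik3ca, the catalytic subunit of PI3K, by 0.35, while Rasa1, a RAS GTPase-activating protein, fell by 0.55 and the adaptor Crk by 0.31. Of 18 negative regulators and sheddases, 4 rose, 1 fell and 13 did not pass, again near the 28.8% of all detected genes. Adam17, a sheddase that cuts membrane proteins at the cell surface, rose by 0.65 ± 0.09 (SE, limma adjusted p = 6.13e-09), with 0.65 at both of its 2 probes. Lrig1, a negative regulator of receptor tyrosine kinases, rose by 0.37 and the adaptor Grb14, an inhibitor of insulin receptor signalling, fell by 0.35. No gene of these 6 lists passed for IL-26, and none differed by 1.5-fold at either time. None of the pathway genes named here passed for time with the local background subtracted. Without the trend of variance 6 missed the threshold (Fgfr3, Insrr, Fgfrl1, Kdr, Igfbp5 and Spint2), and Igfbp5 also missed it with offset 16, with no filter on dim genes and in the authors' table.

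**Figure D4:**
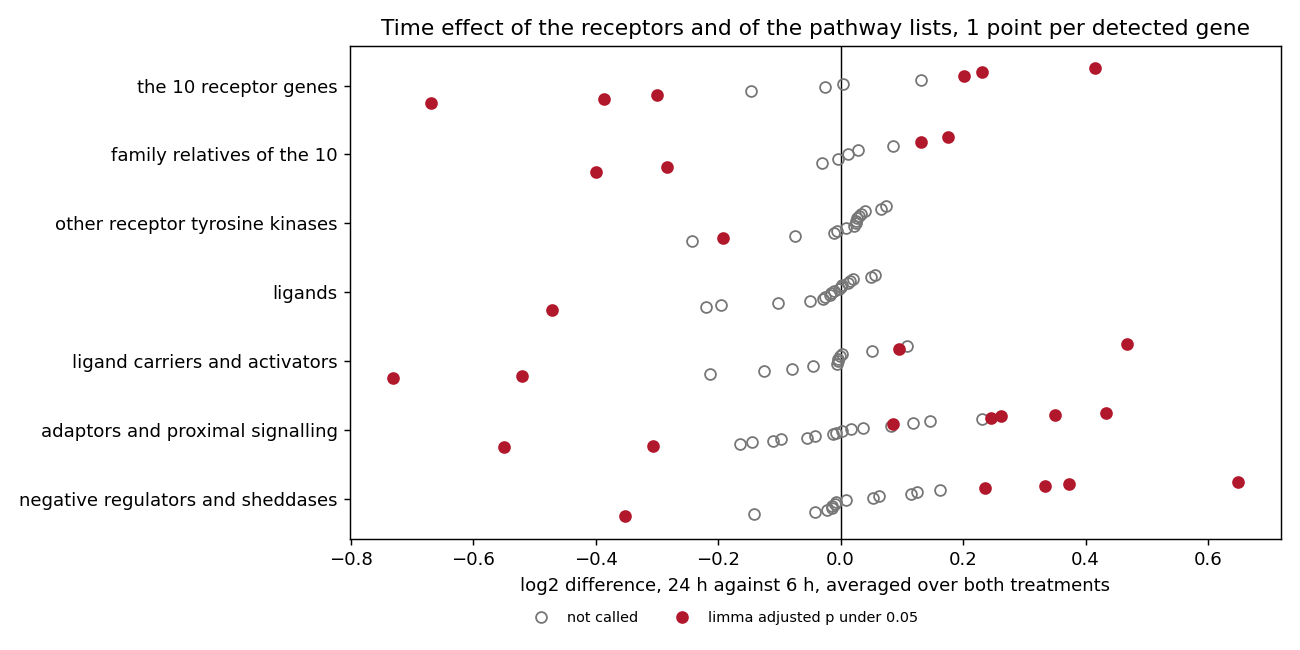
Log2 difference between 24 h and 6 h, averaged over both treatments, for each detected gene of the 10 receptors and of 6 pathway lists; filled points passed limma at an adjusted p under 0.05. The receptors ran from -0.67 (Fgfr1) to 0.41 (Axl), the ligands from -0.47 to 0.06.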

How the data were processed

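Cy5-labelled RNA of each E0771 culture was read on 1 TORAY 3D-Gene mouse array in 1 colour. The deposited intensity values are spot and local background medians, with nothing subtracted and no normalization per the file headers. A second table of intensity values by the authors served as an alternative; its method is not given in the sources used here, but on each array it followed the spot intensity minus 51.9, 56.5, 50.2 and 49.6 (IL-26 and vehicle at 24 h, IL-26 and vehicle at 6 h), the mean of the blank spots, scaled to a median of 25.0, with 6.49% to 7.88% of probes left empty. The files name no genome build.

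The 4 arrays were grouped by their treatment label. Of 23473 probes, 20690 had 1 symbol, 0 had several and 2783 had none; symbols were updated through the gene ID for 20556 and the accession for 9, and 125 stayed as listed. The 7 probes with a scanner flag at the first gain were left out. Intensities were corrected by normexp fitted to the 384 blank spots (offset 50), taken to log2 and quantile normalized (limma 3.58.1, R 4.3.3), and probes of a gene averaged. Genes detected on at least 1 array (18366) entered 1 additive limma model with terms for treatment and time (moderated with an intensity trend, Benjamini-Hochberg). A comparison of 2 arrays has no p-value, and the number of arrays limits its precision. Promoters were read from RefSeq (GRCm38.p6).

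The receptors, lists and tests were chosen with earlier results of these data known. The text names the 10 receptors, from each list up to 2 genes with the highest and 2 with the lowest passing time effect, and the 3 genes closest in pattern to the receptor with the largest time effect. Gas6 and the marker genes were named outside this rule, after their values were seen. Alternatives were median scaling, local background subtraction, offset 16, no filter on dim genes, detection above the negative controls, removal of spots beside bright spots, the authors' table, single probes, and eBayes without the trend.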

Additional observations from a re-analysis of the deposited data

Results flagged for a closer look

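Some effects had opposite signs in the 2 groups compared, each on 1 array per side, and these differences were not tested. The IL-26 difference of Axl was -0.26 at 24 h and 0.05 at 6 h, so that the value at 24 h minus that at 6 h was -0.31 on the log2 scale. The opposite signs of Axl were lost with median scaling (-0.33 at 24 h and -0.0022 at 6 h) and with the local background subtracted (-0.36 and -0.84). The IL-26 difference of Met was 0.06 at 24 h and -0.14 at 6 h, a gap of 0.21. That of Insr, a dim spot, was 0.02 at 24 h and -0.00 at 6 h, a gap of 0.027, and both its values were above 0 with median scaling (0.042 and 0.027). The time difference of Igfbp5 was 0.22 with IL-26 and -0.02 in vehicle, a gap of 0.24.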

How the results depend on the processing

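Leaving out an array was not run, since the fit then has no residual degree of freedom. No paired analysis was possible because the labels give no replicate numbers and each group holds 1 array; the additive model itself sets IL-26 against vehicle within each time. Each receptor has 1 probe, so that taking probes singly changed no call among them. No receptor lies beside a bright spot. Removal of such spots, the filters and the fit without the trend thus left the estimate of each receptor kept in the fit unchanged. They altered only errors and p-values. The count of genes past 1.5-fold, 9 for IL-26 at 24 h, was 14 with median scaling, 2107 with the local background subtracted, 45 with offset 16 and 1088 in the authors' table. At 6 h it was 15, against 3066 with the local background subtracted, 48 with offset 16 and 782 in the authors' table. For time in vehicle it was 844, against 2348, 1291 and 3240 with the local background subtracted, offset 16 and the authors' table, and for time with IL-26 937, against 1465 with offset 16 and 3523 in the authors' table. Genes passing for IL-26 by limma numbered 88 (34.1% higher), against 189 with median scaling (57.1% higher), 262 with the local background subtracted (96.6% higher), 34 with offset 16, 4 with no filter on dim genes (810 at an unadjusted p under 0.05, against 872 with it), and 0 without the trend (711 at an unadjusted p under 0.05). For time they numbered 5296 (50.2% higher), against 6320 with median scaling (61.4% higher), 3449 without the trend and 0 (1048 unadjusted) with local background subtraction. The cause of these changes was not tested.

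With the local background subtracted, the time difference of Fgfr1 in vehicle turned to 0.78, and the average time effects of Fgfr1 and Ddr1 to 0.059 and -0.29, and those of Insrr, Plcg1 and Lrig1 to -0.013, -0.0019 and -1.22. The average IL-26 effects of Mertk, Pdgfra, Pdgfrb, Fgfr1, Igf1r and Insr turned to 0.049, -0.10, 0.091, 0.63, 0.67 and -0.0088; the cause was not tested. Fgfr2, under the negative control limit on all arrays, has no readable direction, and its sign changes (-0.035 for time with the local background subtracted and 0.018 for IL-26 with median scaling) are not read as a turn. It could not be given a value in the authors' table or above the negative controls. Signal over background limits Fgfr2 and Insr most.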
